A study of Mus musculus with 8 samples.

Results

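The α7E260A:G line was compared with the α7G line in the distal lung, over both exposures and across all genes. All 8 of the 8 libraries of the series entered the comparison, 4 of α7E260A:G and 4 of α7G. The α7G mice carried Chrna7-IRES-tauGFP, in which a tauGFP reporter follows an intact nicotinic receptor alpha7 (α7) gene, and the α7E260A:G mice carried Chrna7-E260A-IRES-tauGFP, so the reporter cassette was common to both. Each genotype gave a male and a female library of control mice and a male and a female library of mice exposed to side-stream cigarette smoke (CS) on 5 days per week for 4 months. All mice were labelled adult and more than 90% C57BL/6, and the rest of the background was not given in the sources used here. The change was in the Chrna7 gene itself, and no Cre or tissue-specific promoter was named. Libraries of the same sex and exposure formed 4 pairs, and values are given below in the order control male, control female, CS male and CS female. How many mice contributed to a library was not given, so p-values measure the spread between these libraries. The question addressed was how far the genotypes differed before and after CS in ways common to all 4 pairs, in cell composition, in pathways and by position in the genome.

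The α7 receptor is a ligand-gated ion channel for acetylcholine and nicotine that passes calcium and is known in the lung for limiting inflammatory responses of macrophages and epithelium. The E260A substitution replaces a glutamate at the inner end of the pore and limits the calcium coupling of the receptor to signaling. The distal lung is lined by alveolar type 1 (AT1) cells, which carry gas exchange, and type 2 (AT2) cells, which secrete surfactant, while club and ciliated cells line the bronchioles and alveolar macrophages (AMs) clear particles and surfactant from the airspace.

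The codon that the mutation alters is shown first because it defines both lines, and because the deposited counts cannot show it. Codon 260 of Chrna7 (ENSMUSG00000030525.6, minus strand), counted from the start codon, is GAG for glutamate in the reference, in coding exon 7 of 10 at chr7:70250903-70250905 of NCBIM37 (mm9). Capitals mark this codon in the reference sequence of the transcript strand over chr7:70250890-70250950, which is not a sequence read from these mice.
Chrna7 codon 260: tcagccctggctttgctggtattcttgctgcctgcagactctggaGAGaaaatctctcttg
Chrna7 itself had 0 CDS counts in 7 libraries and 4 in the male α7E260A:G control, so neither its level nor its sequence could be compared. Of 18 annotated genes within 2 Mb of Chrna7, 9 had enough counts to be tested, and edgeR called 0 of these in the genotype comparison, with 1 at an unadjusted p under 0.05 (6.31% of all genes tested were higher at this p and 5.73% lower) and 0 by DESeq2 (4.85%). Their log2 fold-changes lay between -0.21 and 1.25. Of these 9, only Trpm1, a cation channel gene, had genotypes that did not overlap, with 1.41, 2.03, 0.704 and 1.51 RPM in α7G and 2.95, 2.50, 4.97 and 3.26 RPM in α7E260A:G (log2 fold-change 1.25 ± 0.43, adjusted p = 0.264).

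RNA was taken from lungs cleared of lavage content and then depleted of CD45+ cells, and the fraction was labelled as more than 95% epCAM+ and less than 1% CD31+. Total CDS counts lay between 8020726 and 10944100 per library. Per kb of CDS, the level of Ptprc (the CD45 gene) was 197 to 433 RPM per kb, that of Epcam 77.1 to 226 RPM per kb and that of Pecam1 (CD31) 52.0 to 92.4 RPM per kb. Ptprc was above Epcam on this scale in 7 of 8 libraries. The macrophage transcript of Cd68 was above Epcam in 8 of 8, at 435 to 1557 RPM per kb. RNA of CD45+ cells was therefore measured in all libraries of both genotypes, beside that of AT2 cells (Sftpc, 3720 to 35841 RPM per kb). The label gives a share of cells and these values are RNA of single genes, so they do not measure the purity of the fraction. In bulk libraries, fewer cells of a type and less RNA per cell cannot be told apart. The slope of a library's deviation on CDS length ran from -0.279 to 0.39 log2 per doubling, with the α7E260A:G control libraries at both ends (0.39 in the male and -0.279 in the female), so counts of calls are also given with an offset for this dependence.

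Of 13599 genes tested with edgeR's quasi-likelihood test with exposure in the model, 26 passed an adjusted p of 0.05. There were 17 that were higher in α7E260A:G (0.125% of genes tested) and 9 that were lower (0.0662%). For all 26 the genotypes did not overlap and all 4 pairs had the same sign. Across all genes, genotypes did not overlap for 486 higher (3.57%) and 533 lower (3.92%), and all 4 pairs had one sign for 1441 higher (10.6%) and 1500 lower (11.0%). Under scaling by library size the split was 11 higher and 16 lower for the calls, 313 and 757 for genes without overlap, and 907 and 2107 for genes with one sign. The median log2 fold-change of all genes was 0.03, or -0.05 under that scaling. With the CDS length offset 347 genes were called higher (2.55%) and 219 lower (1.61%), and these included all 26. At an unadjusted p under 0.05 edgeR had 858 higher (6.31%) and 779 lower (5.73%), and DESeq2 called 388 higher (2.85%) and 272 lower (2.0%). Leaving out the female α7E260A:G control gave 978 calls, leaving out the male α7E260A:G control gave 26, and leaving out any of the other 6 gave between 5 and 8.

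Some called transcripts were near 0 in one line. Trim12a, a member of the tripartite motif family of antiviral restriction factors, had 46.95, 46.7, 46.4 and 48.3 RPM in α7G and 0.114, 0.109, 0 and 0.121 RPM in α7E260A:G. Summed over libraries this was 1704 against 3 counts, a ratio of 549 with an exact 95% binomial interval of 187 to 2663 for counting error only (edgeR adjusted p = 2.07e-05). Rps13-ps1, a ribosomal protein pseudogene, stood the other way, with 0, 0.102, 0 and 0 RPM in α7G and 23.4, 88.3, 40.7 and 69.3 RPM in α7E260A:G, and a ratio of 2015 (interval 361 to 79626, adjusted p = 0.00182). Rps13-ps1 shares 88.7% of its coding 50-base words with Gm10159. A change at its own position therefore cannot be told apart from a gain or loss of reads of relatives. Greb1, known as an estrogen-responsive gene, had 0, 0.407, 0 and 0.349 RPM in α7G and 23.8, 5.32, 16.6 and 6.75 RPM in α7E260A:G (adjusted p = 0.0394). For these genes a fitted fold-change depends on the prior count, and the per-library values carry the comparison.

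Transcripts present in both lines differed by smaller factors. Gdpd3, of the glycerophosphodiester phosphodiesterase family, had 7.16, 9.86, 11.3 and 9.53 RPM in α7G and 73.6, 235, 209 and 228 RPM in α7E260A:G (log2 fold-change 4.29 ± 0.37, adjusted p = 0.00397). Mtap6, which encodes a microtubule-stabilising protein, had 3.58, 6.71, 7.51 and 9.18 RPM in α7G and 53.4, 49.5, 63.8 and 66.7 RPM in α7E260A:G (log2 fold-change 3.14 ± 0.23, adjusted p = 0.00182). F10, coagulation factor X, had 54.8, 77.5, 71.4 and 70.8 RPM in α7G and 429.7, 391, 218 and 389 RPM in α7E260A:G (log2 fold-change 2.36 ± 0.24, adjusted p = 0.0124). Every α7E260A:G library was above every α7G library for each of these, and the male α7E260A:G control stood below the other libraries of its line for Gdpd3. St6galnac2, a sialyltransferase, had 11.1, 12.4, 4.93 and 16.6 RPM in α7G and 65.9, 54.1, 56.4 and 62.9 RPM in α7E260A:G (log2 fold-change 2.41 ± 0.33, adjusted p = 0.0362). Plxdc1, a plexin domain membrane protein, had 10.3, 9.45, 18.2 and 10.1 RPM in α7G and 27.6, 32.7, 37.6 and 46.2 RPM in α7E260A:G (log2 fold-change 1.59 ± 0.22, adjusted p = 0.0375). Klrc3, of the NKG2 receptor family of natural killer (NK) cells, was low in both lines, with 2.06, 1.83, 0.822 and 0.930 RPM in α7G and 11.3, 10.8, 4.16 and 2.77 RPM in α7E260A:G (log2 fold-change 2.26 ± 0.31, adjusted p = 0.0353). The lines did not overlap for these 3 either. Ttyh2, a membrane protein of the tweety family, lay at 23.4 to 30.1 RPM in α7G and 51.4 to 56.2 RPM in α7E260A:G, a difference close to 2-fold (log2 fold-change 1.02 ± 0.14).

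Among transcripts called lower in α7E260A:G, Lamb3 and Irx1 are known in epithelium. Lamb3, a laminin chain of the epithelial basement membrane, had 40.01, 35.6, 25.6 and 25.7 RPM in α7G and 11.3, 8.80, 6.94 and 11.5 RPM in α7E260A:G (log2 fold-change -1.70 ± 0.22, adjusted p = 0.0322). Irx1, an Iroquois homeobox factor of lung epithelium, had 34.4, 48.3, 27.2 and 42.1 RPM in α7G and 11.9, 16.95, 9.25 and 12.3 RPM in α7E260A:G (log2 fold-change -1.60 ± 0.23, adjusted p = 0.0453). For both, the lowest α7G library stood above the highest α7E260A:G library. The same held for Mtmr7, a phosphoinositide phosphatase, with 40.99, 35.4, 35.7 and 36.4 RPM in α7G and 13.4, 15.1, 17.0 and 14.6 RPM in α7E260A:G (log2 fold-change -1.30 ± 0.17, adjusted p = 0.0304).

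**Figure D1:**
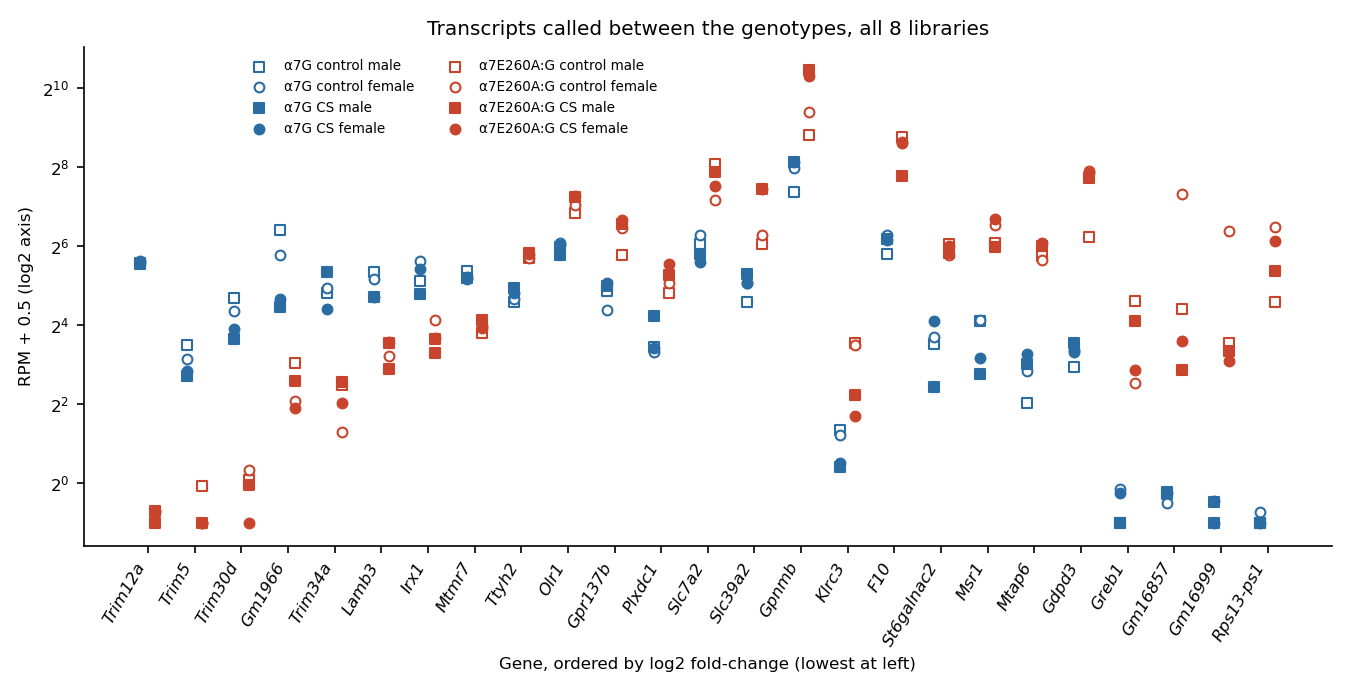
RPM plus 0.5 on a log2 axis of 25 of the 26 transcripts past an adjusted p of 0.05, ordered by log2 fold-change, with 1 point per library (α7G blue, α7E260A:G red, squares male, circles female, filled CS). For each gene the 4 red points lie wholly on one side of the 4 blue points, from Trim12a at 46.4 to 48.3 RPM in α7G against 0 to 0.121 RPM to Ttyh2, where the lines differ by a log2 fold-change of 1.02.

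Cell composition was read from marker lists, which were written with earlier results of these data known. Transcripts of AMs were higher in α7E260A:G. Of 31 AM markers tested, 30 had a positive log2 fold-change, 23 were higher in 4 of 4 pairs (10.6% of all genes) and 16 did not overlap between genotypes (3.57% of all genes). None was lower by either count. The edgeR test called 2 of these markers, Olr1 and Slc39a2, and with the length offset 19. The list's median log2 fold-change was 0.80 against 0.03 over all genes, with medians of 0.71, 0.89, 0.72 and 0.86 in the control male, control female, CS male and CS female pairs, and it ranged from 0.70 to 0.94 over 21 other settings.

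Olr1, the receptor for oxidised low-density lipoprotein, had 61.7, 66.7, 54.1 and 64.6 RPM in α7G and 113, 131, 151 and 154 RPM in α7E260A:G (log2 fold-change 1.14 ± 0.16, adjusted p = 0.0394). Slc39a2, a zinc importer, had 23.6, 32.8, 38.9 and 33.0 RPM in α7G and 66.1, 76.4, 173 and 172 RPM in α7E260A:G (log2 fold-change 1.80 ± 0.23, adjusted p = 0.0304), and its CS libraries were the highest in α7E260A:G. Fabp4, a fatty acid carrier known from mature AMs, had 13.7, 27.8, 30.1 and 26.4 RPM in α7G and 58.5, 284, 108 and 224 RPM in α7E260A:G, and the lines did not overlap (log2 fold-change 2.80 ± 0.50, adjusted p = 0.071, and 2.16 without the female α7E260A:G control). Mrc1, the mannose receptor, had 776, 752, 409 and 513 RPM in α7G and 1509.8, 1099.8, 1276 and 1023 RPM in α7E260A:G (log2 fold-change 1.04 ± 0.21, adjusted p = 0.0824). The most abundant marker of the list was Chi3l3, the chitinase-like protein Ym1, with 5630.1, 10309, 9623 and 13537 RPM in α7G and 16557, 36812, 19667 and 34476 RPM in α7E260A:G (log2 fold-change 1.48 ± 0.37, adjusted p = 0.128). Chi3l3 shares 19.8% of its coding 50-base words with Chi3l4, so part of its reads could belong to either. Marco, a scavenger receptor for particles, lay at 146 to 491 RPM in α7G and 571 to 1763 RPM in α7E260A:G (log2 fold-change 1.77 ± 0.28, adjusted p = 0.0536). With the length offset Fabp4 (adjusted p = 0.000669), Marco (0.00661), Mrc1 (0.0189) and Chi3l3 (0.024) passed the threshold.

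General macrophage and phagosome transcripts had a smaller shift. Of 22 tested, 14 were higher (10.6% of all genes) and 1 lower (11.0%) in 4 of 4 pairs. Without overlap 10 were higher (3.57%), and the median log2 fold-change was 0.65. One was called by edgeR, with 14 higher at an unadjusted p under 0.05 and 11 by DESeq2, and 12 were called higher with the length offset. The one called by edgeR was Msr1, a scavenger receptor, with 16.8, 17.1, 6.34 and 8.48 RPM in α7G and 67.1, 92.04, 62.2 and 102 RPM in α7E260A:G (log2 fold-change 2.83 ± 0.32, adjusted p = 0.0205). Mpeg1, a pore-forming protein of macrophages, had log2 fold-change 0.98 ± 0.20 (adjusted p = 0.0833). Ptprc had 1745, 1321, 811 and 795 RPM in α7G and 1727, 1137, 1312 and 923 RPM in α7E260A:G (log2 fold-change 0.19 ± 0.23, adjusted p = 0.858), and the lines overlapped. Markers of monocytes and interstitial macrophages had a median of 0.17, with 4 of 25 higher in 4 of 4 pairs and 0 called by edgeR (5 higher at an unadjusted p under 0.05, against 6.31% of all genes, 2 by DESeq2 and 2 with the length offset). Among these, Apoe (an apolipoprotein of interstitial macrophages) had log2 fold-change -0.42 ± 0.24 (adjusted p = 0.57) and Csf1r (the receptor for colony stimulating factor 1) 0.65 ± 0.26 (adjusted p = 0.346). The summed AM transcripts were 14314, 20449, 21181 and 26026 RPM in α7G and 29777, 59439.5, 37943 and 59197 RPM in α7E260A:G, and each α7E260A:G library was above each α7G library.

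Epithelial transcripts were lower in α7E260A:G, those of AT2 cells among them. All 17 AT2 markers tested had a negative log2 fold-change, 14 were lower in 4 of 4 pairs (11.0% of all genes) and 10 did not overlap (3.92%). The edgeR test called 0, with 13 at an unadjusted p under 0.05 and 7 by DESeq2, and 8 were called with the length offset. The list's median was -1.11, with pair medians of -1.54, -0.92, -1.27 and -0.67, and ranged from -1.52 to -0.89 over the other settings. Summed AT2 transcripts were 22435, 26687, 21575 and 33385 RPM in α7G and 7057, 15441, 4952 and 17362 RPM in α7E260A:G, with both male α7E260A:G libraries below both female ones.

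Slc34a2, the phosphate transporter of AT2 cells, had 1053, 916, 382 and 701 RPM in α7G and 321, 278, 158 and 335 RPM in α7E260A:G (log2 fold-change -1.43 ± 0.30, adjusted p = 0.0875). Lgi3, a secreted protein enriched in AT2 cells, had 118, 109, 43.3 and 92.7 RPM in α7G and 35.8, 31.1, 20.7 and 41.5 RPM in α7E260A:G (log2 fold-change -1.45 ± 0.31, adjusted p = 0.0908). Scd1, a desaturase of surfactant lipid synthesis, had 476, 317, 192 and 187 RPM in α7G and 123, 132, 98.9 and 154 RPM in α7E260A:G (log2 fold-change -1.11 ± 0.27, adjusted p = 0.123). For all 3 the lines did not overlap, and with the length offset they passed at adjusted p = 0.0217, 0.0198 and 0.0403. Scd1 shares 21.9% of its coding words with other genes, mostly Scd3.

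All 12 AT1 markers tested had negative log2 fold-changes (median -0.81), 8 were lower in 4 of 4 pairs (11.0% of all genes) and 5 did not overlap (3.92%). The edgeR test called 0, with 7 at an unadjusted p under 0.05 and 6 by DESeq2, and 5 were called with the length offset. Cldn18, a tight junction protein of the alveolus, had 54.0, 59.8, 27.5 and 41.3 RPM in α7G and 15.2, 11.5, 12.03 and 22.1 RPM in α7E260A:G (log2 fold-change -1.55 ± 0.31, adjusted p = 0.0824). Gprc5a, a receptor known as a lung tumor suppressor, had 90.98, 93.2, 92.6 and 86.7 RPM in α7G and 29.5, 39.6, 23.9 and 62.8 RPM in α7E260A:G (log2 fold-change -1.23 ± 0.28, adjusted p = 0.108). Ager, the receptor for advanced glycation end products and the main AT1 marker, had 235, 271, 213 and 297 RPM in α7G and 69.2, 150.2, 60.8 and 198 RPM in α7E260A:G (log2 fold-change -1.09 ± 0.38, adjusted p = 0.263). Summed AT1 transcripts lay at 593 to 732 RPM in α7G and 257 to 521 RPM in α7E260A:G, without overlap.

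Transcripts common to epithelial cells were also lower in most members. Of 25 tested, 16 were lower (11.0% of all genes) and 1 higher (10.6%) in 4 of 4 pairs. Without overlap 8 were lower (3.92%), and the median was -0.64. The edgeR test called 0, with 14 at an unadjusted p under 0.05 and 6 by DESeq2, and 4 were called with the length offset. Epcam, the surface antigen by which the fraction was labelled, had 118, 179, 214 and 173 RPM in α7G and 82.8, 97.9, 72.8 and 101 RPM in α7E260A:G (log2 fold-change -0.94 ± 0.21, adjusted p = 0.103). Each α7G library was above each α7E260A:G library for Epcam, which passed with the length offset (adjusted p = 0.0125). Club cell markers had a median of -0.67, with 6 of 17 lower in 4 of 4 pairs and 1 without overlap, Cyp2f2 (log2 fold-change -0.73, adjusted p = 0.141). The edgeR test called 0 of these, with 7 lower at an unadjusted p under 0.05 and 3 by DESeq2, and 4 with the length offset. The club cell secretoglobin Scgb1a1 had 33974, 45034, 44352 and 59831 RPM in α7G and 19853, 49836, 9694 and 36929 RPM in α7E260A:G, and the lines overlapped (log2 fold-change -0.67 ± 0.49, adjusted p = 0.687). Ciliated cell markers had a median of -0.17, with 0 of 20 without overlap and 5 lower in 4 of 4 pairs, and this median changed sign in 3 of 21 other settings. Foxj1, the master factor of cilia formation, had log2 fold-change -0.38 ± 0.31 (adjusted p = 0.729).

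B cell transcripts were lower in most members, while a plasma cell transcript was not. Of 16 tested, 10 were lower in 4 of 4 pairs (11.0% of all genes) and 9 were lower without overlap (3.92%), with a median of -0.93. The edgeR test called 0, with 12 at an unadjusted p under 0.05 and 8 by DESeq2, and 9 were called with the length offset. Fcer2a, the low-affinity IgE receptor of follicular B cells, had 156, 89.6, 155 and 97.8 RPM in α7G and 31.4, 49.98, 44.98 and 35.4 RPM in α7E260A:G (log2 fold-change -1.62 ± 0.26, adjusted p = 0.0587). Fcrla, an Fc receptor-like protein of B cells, had 136, 113, 195 and 148 RPM in α7G and 54.1, 104, 56.7 and 64.1 RPM in α7E260A:G (log2 fold-change -1.08 ± 0.27, adjusted p = 0.128). Igj, the J chain of secreted immunoglobulin made by plasma cells, stood apart in 1 library, with 527, 616, 416 and 857 RPM in α7G and 297, 6450.3, 370.5 and 424 RPM in α7E260A:G (log2 fold-change 0.94 ± 1.02, adjusted p = 0.826). Without that library, the female α7E260A:G control, its log2 fold-change was -0.78. The summed list was 3705, 2996, 4109 and 3969.9 RPM in α7G and 1914, 8788, 2206 and 2365 RPM in α7E260A:G, and 3 of the 4 α7E260A:G libraries lay below all of α7G.

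Endothelial markers had a median of -0.51, with 9 of 24 lower in 4 of 4 pairs (11.0% of all genes) and 3 without overlap. None was called by edgeR, with 9 lower at an unadjusted p under 0.05 and 4 by DESeq2, and 3 were called with the length offset. The pair medians were 0.19, -0.99, -0.51 and -0.88, so the control male pair stood the other way. Pecam1, the CD31 gene, had 199.96, 202, 205 and 205 RPM in α7G and 186, 123, 148 and 116 RPM in α7E260A:G (log2 fold-change -0.51 ± 0.18, adjusted p = 0.289). NK cell markers had a median of -0.33, with 7 lower (11.0% of all genes) and 1 higher (10.6%) in 4 of 4 pairs of 21. T cell markers had a median of -0.22, with 3 of 20 lower. Dendritic cell markers had a median of -0.08 and neutrophil markers of 0.22. Fibroblast markers had a median of 0.27, and the medians of the NK, T, dendritic, neutrophil and fibroblast lists each changed sign under at least 1 other setting. B cell medians were below 0 in all 4 pairs (-1.17, -0.19, -0.93 and -0.95), as were those of AT2 cells, and endothelial medians in 3 of the 4, and the part of one list in another was not tested.

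**Figure D2:**
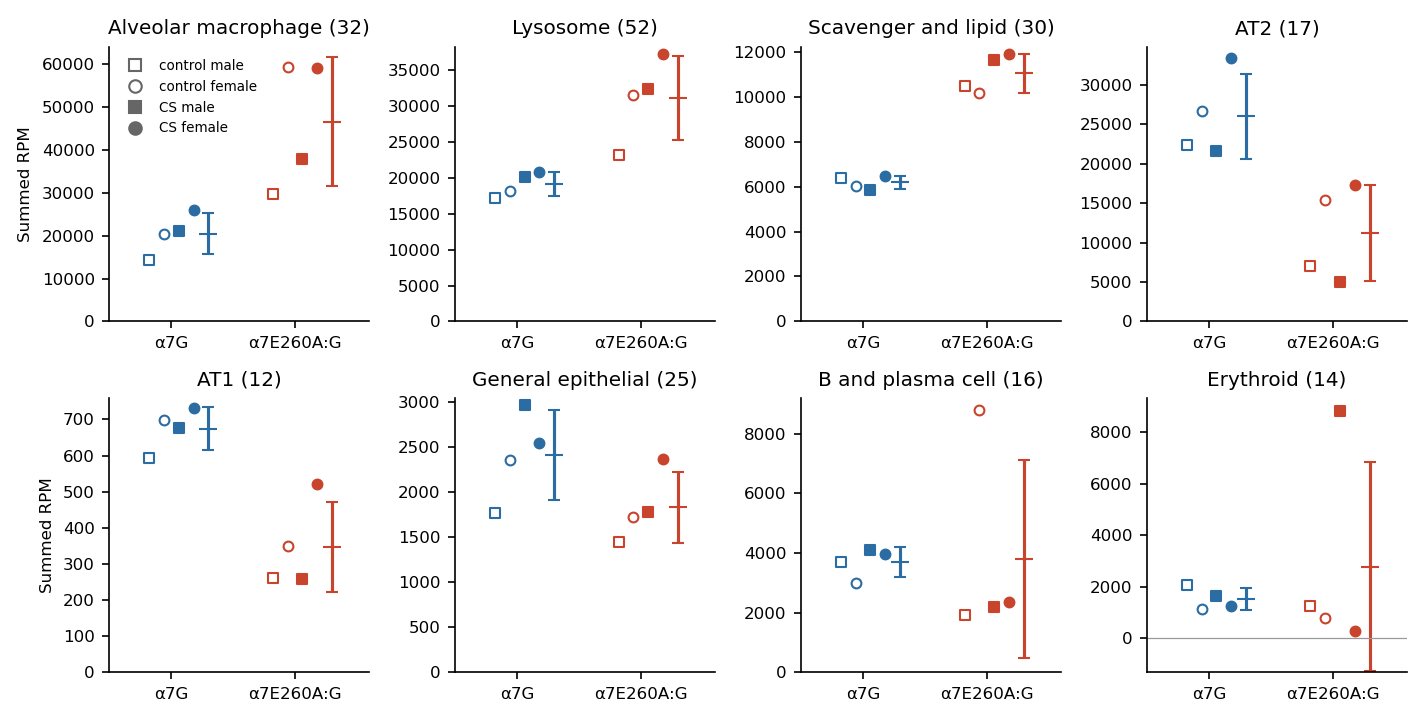
Summed RPM of 8 marker and pathway lists per library (number of listed genes found in parentheses), with the mean and SD of 4 libraries per genotype beside the points. AM, lysosome and scavenger sums are higher in each α7E260A:G library, AT2 and AT1 sums are lower, general epithelial sums overlap, and single α7E260A:G libraries stand apart for B and plasma cell (8788 RPM) and erythroid (8816 RPM) transcripts.

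**Figure D3:**
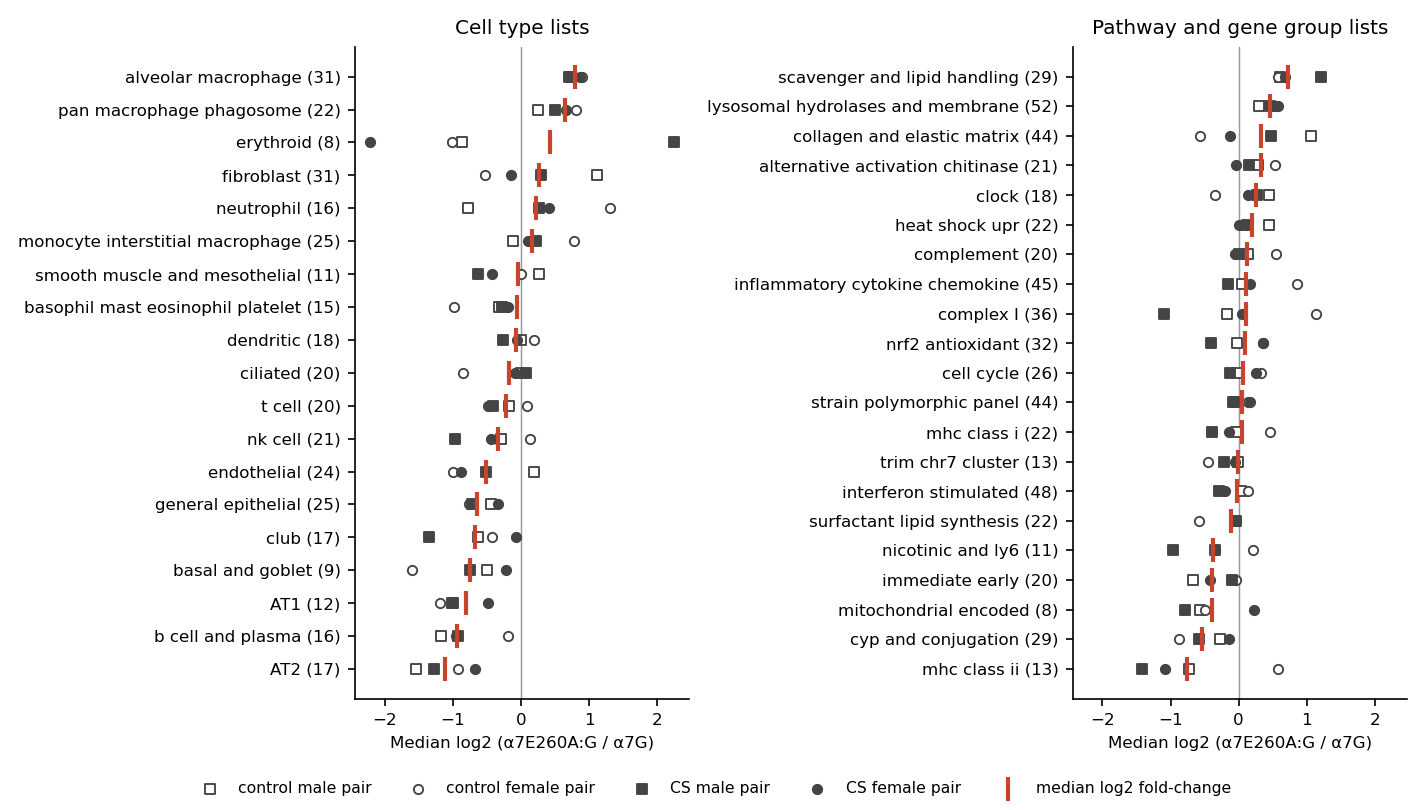
Median log2 ratio of α7E260A:G to α7G over the tested genes of each list (number in parentheses), for the 4 pairs of libraries and, as a red bar, for the edgeR log2 fold-change of all 8. The 4 pairs lie on one side of 0 for AM (0.71, 0.89, 0.72 and 0.86) and AT2 (-1.54, -0.92, -1.27 and -0.67) transcripts, whereas pairs fall on both sides for complex I and erythroid transcripts.

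Among pathways, lysosomal genes were higher in α7E260A:G in most members, and their products degrade protein, lipid and glycan in acid vesicles and are abundant in macrophages. Of 52 tested, 38 were higher (10.6% of all genes) and 1 lower (11.0%) in 4 of 4 pairs, and 23 higher (3.57%) and 0 lower (3.92%) did not overlap. The edgeR test called 0, with 34 at an unadjusted p under 0.05 and 21 by DESeq2, and 18 higher and 0 lower passed with the length offset. The median was 0.47, with pair medians of 0.29, 0.53, 0.47 and 0.57 and a range of 0.33 to 0.52 over the other settings. Summed lysosomal transcripts were 17234, 18189.7, 20158 and 20779 RPM in α7G and 23138, 31502, 32427 and 37230.0 RPM in α7E260A:G.

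Pla2g15, the lysosomal phospholipase A2 that degrades surfactant phospholipid in AMs, had 83.8, 97.7, 83.6 and 119 RPM in α7G and 182, 187, 183 and 232 RPM in α7E260A:G (log2 fold-change 1.03 ± 0.17, adjusted p = 0.0668). Gla, the alpha-galactosidase, had 18.0, 24.6, 24.5 and 30.3 RPM in α7G and 33.4, 52.05, 61.97 and 49.1 RPM in α7E260A:G (log2 fold-change 1.01 ± 0.21, adjusted p = 0.0853). The lines did not overlap for either. Ctsd, an aspartic protease, had 3101, 4219, 4423 and 5052 RPM in α7G and 4773, 8381, 9393 and 11347 RPM in α7E260A:G (log2 fold-change 0.99 ± 0.25, adjusted p = 0.133), and its male α7E260A:G control lay within the range of α7G. Ctsb, a cysteine protease, had 880.4, 857, 989.9 and 891 RPM in α7G and 1132, 1492, 1540.0 and 1733 RPM in α7E260A:G (log2 fold-change 0.70 ± 0.17, adjusted p = 0.128). Psap, the precursor of the saposins that present lipids to hydrolases, had log2 fold-change 0.91 ± 0.19 (adjusted p = 0.0853). Gpr137b, a membrane protein of lysosomes outside the list, was called, with 28.6, 20.3, 31.1 and 33.1 RPM in α7G and 54.3, 87.7, 93.2 and 99.7 RPM in α7E260A:G (log2 fold-change 1.56 ± 0.20, adjusted p = 0.0304).

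Many lysosomal genes are known to carry a promoter element with the core TCACGTG, which transcription factors of the MiT/TFE family bind, so their promoters were searched for this core on both strands from 250 bases before to 50 after the start. The RefSeq promoters (GRCm38.p6) matched 42 of the 52 lysosomal genes, and 13 of these held the core (30.95%). It was in 4.29% of all 27025 promoters and 6.69% of the 9534 that belong to genes tested here. Among the lysosomal genes higher in 4 of 4 pairs it was in 11 of 31, and among the others in 2 of 11. The core was in 2 of 21 AM marker promoters, 1 of 20 scavenger promoters and 0 of 12 AT2 promoters. A match describes the letters and shows no binding. Promoters of Ctsd and of Lamp1, a membrane protein of the lysosome, are shown because these are the most abundant lysosomal transcripts that were higher in 4 of 4 pairs and hold the core, as the 250 bases before the start with matches in capitals. Ctsd lies at chr7:142387828-142388077 on the minus strand, with 3 matches of which 2 overlap on opposite strands, and Lamp1 at chr8:13158911-13159160 on the plus strand, with 4.
Ctsd promoter: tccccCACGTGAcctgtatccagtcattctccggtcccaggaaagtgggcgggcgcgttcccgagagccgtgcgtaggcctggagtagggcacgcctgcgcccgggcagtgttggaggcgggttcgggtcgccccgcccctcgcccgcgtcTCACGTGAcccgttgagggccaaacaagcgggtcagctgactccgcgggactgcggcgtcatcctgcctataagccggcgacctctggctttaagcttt
Lamp1 promoter: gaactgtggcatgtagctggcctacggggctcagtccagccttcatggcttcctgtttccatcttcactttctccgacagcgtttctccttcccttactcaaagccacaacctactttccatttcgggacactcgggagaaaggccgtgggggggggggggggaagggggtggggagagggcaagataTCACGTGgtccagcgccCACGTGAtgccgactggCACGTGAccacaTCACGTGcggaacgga
Lamp1 had 649.8, 751, 843 and 851 RPM in α7G and 910.4, 1129, 1267 and 1547 RPM in α7E260A:G (log2 fold-change 0.64 ± 0.17, adjusted p = 0.152).

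Scavenger receptors and lipid-handling genes, which take up and store modified lipoproteins and surfactant lipid, were also higher in most members. Of 29 tested, 17 were higher (10.6% of all genes) and 2 lower (11.0%) in 4 of 4 pairs. Genotypes did not overlap for 13 higher (3.57%) and 1 lower (3.92%), and the median was 0.73. By edgeR 3 were called higher (Msr1, Olr1 and Gpnmb, against 0.125% of all genes), DESeq2 called 14 higher and 1 lower, and with the length offset 15 higher and 1 lower were called. Its members Olr1, Marco, Mrc1, Fabp4 and Fabp5 are also AM markers. Gpnmb, a glycoprotein of lipid-laden macrophages, had 163, 248, 278 and 279 RPM in α7G and 448, 667, 1399.5 and 1243 RPM in α7E260A:G (log2 fold-change 1.84 ± 0.25, adjusted p = 0.0362), with both α7E260A:G CS libraries above both α7E260A:G controls. The summed list was 6387, 6039, 5857 and 6468 RPM in α7G and 10463, 10153, 11655 and 11904 RPM in α7E260A:G and did not overlap. Fabp5, a fatty acid carrier, had 26.6, 40.3, 39.9 and 41.7 RPM in α7G and 71.03, 298, 152 and 261 RPM in α7E260A:G (log2 fold-change 2.40 ± 0.42, adjusted p = 0.0694). Slc7a2, a transporter of arginine in alternatively activated macrophages, was called, with 65.1, 77.03, 55.3 and 47.99 RPM in α7G and 270.0, 143, 232 and 183 RPM in α7E260A:G (log2 fold-change 1.77 ± 0.24, adjusted p = 0.0353).

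Genes of alternative activation and the chitinase family did not move one way. Of 21 tested, 4 higher (3.57% of all genes) and 1 lower (3.92%) did not overlap. Chi3l1, a chitinase-like protein of epithelium and macrophages, was opposite to Chi3l3, with 506, 678, 507 and 614 RPM in α7G and 162, 291, 88.6 and 291 RPM in α7E260A:G (log2 fold-change -1.47 ± 0.36, adjusted p = 0.123). Mmp12, the macrophage elastase, had 22.01, 14.9, 1.29 and 8.37 RPM in α7G and 59.9, 118, 7.52 and 12.8 RPM in α7E260A:G (log2 fold-change 1.71 ± 0.53, adjusted p = 0.212, and 2.49 without the female α7G CS library), and the lines overlapped. Mmp19, a metalloproteinase, had 34.05, 63.4, 30.9 and 45.6 RPM in α7G and 131, 79.0, 97.2 and 75.6 RPM in α7E260A:G (log2 fold-change 1.14 ± 0.26, adjusted p = 0.108). Antigen presentation genes of MHC class II had a median of -0.75 over 13. Their pair medians were -0.73, 0.58, -1.41 and -1.09, so the control female pair stood the other way. In 4 of 4 pairs 2 were higher and 2 lower, and 9 were mixed. Genotypes did not overlap for 2 lower and 1 higher. The lower ones were H2-DMb2, with 146, 122, 191 and 152 RPM in α7G and 66.5, 82.1, 58.04 and 61.8 RPM in α7E260A:G (log2 fold-change -1.18 ± 0.20, adjusted p = 0.0664), and H2-Ob, with 201, 155, 231 and 163 RPM in α7G and 76.5, 105, 86.5 and 74.5 RPM in α7E260A:G (log2 fold-change -1.13 ± 0.20, adjusted p = 0.071), which take part in peptide loading, H2-Ob in B cells. H2-DMb2 shares 46.6% of its coding words with H2-DMb1. Cd74, the invariant chain, had log2 fold-change -0.75 ± 0.34 (adjusted p = 0.434).

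Xenobiotic metabolism genes were lower in several members. Of 29 tested, 14 were lower (11.0% of all genes) and 2 higher (10.6%) in 4 of 4 pairs, and the median was -0.54. Genotypes did not overlap for 5 lower (3.92%) and 2 higher (3.57%). At an unadjusted p under 0.05 edgeR had 11 lower (5.73%) and 2 higher (6.31%). DESeq2 called 7 lower (2.0%), and 7 lower passed with the length offset (1.61%). The list includes the club cell transcript Cyp2f2. Antioxidant genes of the Nrf2 program had a median of 0.10 over 32. One of them, Gsr, which encodes glutathione reductase, had 207, 177, 181 and 167 RPM in α7G and 80.5, 73.2, 91.6 and 109 RPM in α7E260A:G without overlap (log2 fold-change -1.06 ± 0.17, adjusted p = 0.0654, and 0.0059 with the length offset). Complement and coagulation genes had a median of 0.12 over 20, with F10 called. Hc, complement C5, had 685, 639, 141 and 349.6 RPM in α7G and 174, 208, 66.9 and 135 RPM in α7E260A:G (log2 fold-change -1.54 ± 0.33, adjusted p = 0.0908), and C3, the central complement protein, had 775, 747, 780.3 and 901 RPM in α7G and 1613, 994, 1036 and 910.3 RPM in α7E260A:G (log2 fold-change 0.49 ± 0.22, adjusted p = 0.417).

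Complex I and matrix genes, which the study examined after CS, did not shift one way across the pairs. Of 36 complex I genes of the respiratory chain, 0 were higher and 0 lower in 4 of 4 pairs and 0 had an unadjusted p under 0.05, and the pair medians were -0.17, 1.13, -1.10 and 0.05. Of 44 collagen and elastic matrix genes, 4 were higher and 2 lower in 4 of 4 pairs, with pair medians of 1.07, -0.57, 0.48 and -0.13. Of all genes tested, 10.6% were higher and 11.0% lower in 4 of 4 pairs. Both pathways had pairs of opposite sign. Cytokine and chemokine genes had a median of 0.11, with 10 higher and 4 lower of 45, and interferon-stimulated genes -0.02, with 4 and 5 of 48. Klf2, a factor of quiescent endothelium and lymphocytes, had 164, 156, 224 and 177 RPM in α7G and 101, 108, 119 and 91.4 RPM in α7E260A:G (log2 fold-change -0.77 ± 0.17, adjusted p = 0.0918), and the lines did not overlap. Some genes best known from kidney and liver also had one sign in all pairs. Cdh16 (a cadherin) had 17.8, 12.9, 3.99 and 8.13 RPM in α7G and 3.41, 3.59, 0.694 and 2.41 RPM in α7E260A:G (log2 fold-change -2.05 ± 0.40, adjusted p = 0.0777), Tinag (a basement membrane antigen) had 15.3, 14.9, 8.10 and 12.4 RPM in α7G and 2.73, 5.98, 1.85 and 2.53 RPM in α7E260A:G (log2 fold-change -1.995 ± 0.32, adjusted p = 0.0609), and Orm2 (an acute phase protein) had 0, 0, 4.81 and 0.349 RPM in α7G and 2.50, 6.52, 25.4 and 66.8 RPM in α7E260A:G (log2 fold-change 4.61 ± 0.86, adjusted p = 0.0727, and 7.24 without the male α7G CS library).

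By position, several calls lay together. Of the 26, 7 were on chromosome 7, which holds Chrna7 and 1043 of the genes tested, 5 on chromosome 8 and 3 on chromosome 12, and 13 had another called gene within 2 Mb. The called genes of chromosome 7 lay away from Chrna7, with Mtap6 the nearest at 36.2 Mb, Trim12a at 41.2 Mb and Gdpd3 at 63.7 Mb. Around Trim12a, 13 genes within 1 Mb were tested, 6 of these did not overlap and 4 were called (Trim12a, Trim5, Trim30d and Trim34a). Within 5 Mb, 16 of 89 did not overlap and 5 were called, the fifth being Gm1966. Over all genes tested, 7.49% did not overlap in either direction and 0.191% were called. Both windows were centred on Trim12a, a called gene that is itself counted in them, so nothing is read from the difference in these shares.

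The tripartite motif genes of this cluster belong to a family that restricts viruses and varies in copy number among mouse strains. Trim30d had 25.2, 19.8, 12.1 and 14.5 RPM in α7G and 0.568, 0.761, 0.462 and 0 RPM in α7E260A:G (adjusted p = 0.00397), Trim5 had 10.7, 8.33, 6.10 and 6.62 RPM in α7G and 0.455, 0, 0 and 0 RPM in α7E260A:G (adjusted p = 0.0304), and Trim34a had 27.7, 29.98, 39.8 and 20.8 RPM in α7G and 5.11, 1.96, 5.43 and 3.62 RPM in α7E260A:G (log2 fold-change -2.88 ± 0.35, adjusted p = 0.0304). Their neighbours went both ways. Trim30a had log2 fold-change 0.13 ± 0.17 (adjusted p = 0.868), Trim12c 0.25 ± 0.19 (adjusted p = 0.722) and Trim30c 0.14 ± 0.65 (adjusted p = 0.974). Trim34b had 2.20 ± 0.74 (adjusted p = 0.245, and 3.02 without the male α7G CS library). Trim30b was lower without overlap (-1.45 ± 0.34, adjusted p = 0.108). A second Trim30b entry had -1.27 ± 0.62 (adjusted p = 0.467) and Trim6 -0.66 ± 0.46 (adjusted p = 0.661). Reads could be split among these copies, since 50-base words of the coding sequence are shared with other genes for 58.1% of Trim34a (mostly Trim34b), 40.7% of Trim5 (mostly Trim12c), 34.02% of Trim12a (mostly Trim5) and 18.6% of Trim30d (mostly Trim30a), and Trim34a overlaps Trim12a. For a single copy, a gain or loss of reads to a relative can therefore not be told apart from a change of level. Summed over the 15 listed genes of the cluster found, levels were 353, 293, 267 and 253 RPM in α7G. In α7E260A:G they were 243, 176, 187 and 175 RPM, without overlap. How far reads moved between copies was not tested. Gm1966, of the very large interferon-inducible GTPases, had 84.3, 53.9, 21.3 and 24.9 RPM in α7G and 7.73, 3.69, 5.55 and 3.26 RPM in α7E260A:G (log2 fold-change -3.01 ± 0.38, adjusted p = 0.0304), while its relative Gm4759 in the same region had 5.10, 1.93, 1.53 and 1.74 RPM in α7G and 18.9, 12.8, 12.6 and 7.96 RPM in α7E260A:G (log2 fold-change 2.39 ± 0.37, adjusted p = 0.0536).

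**Figure D4:**
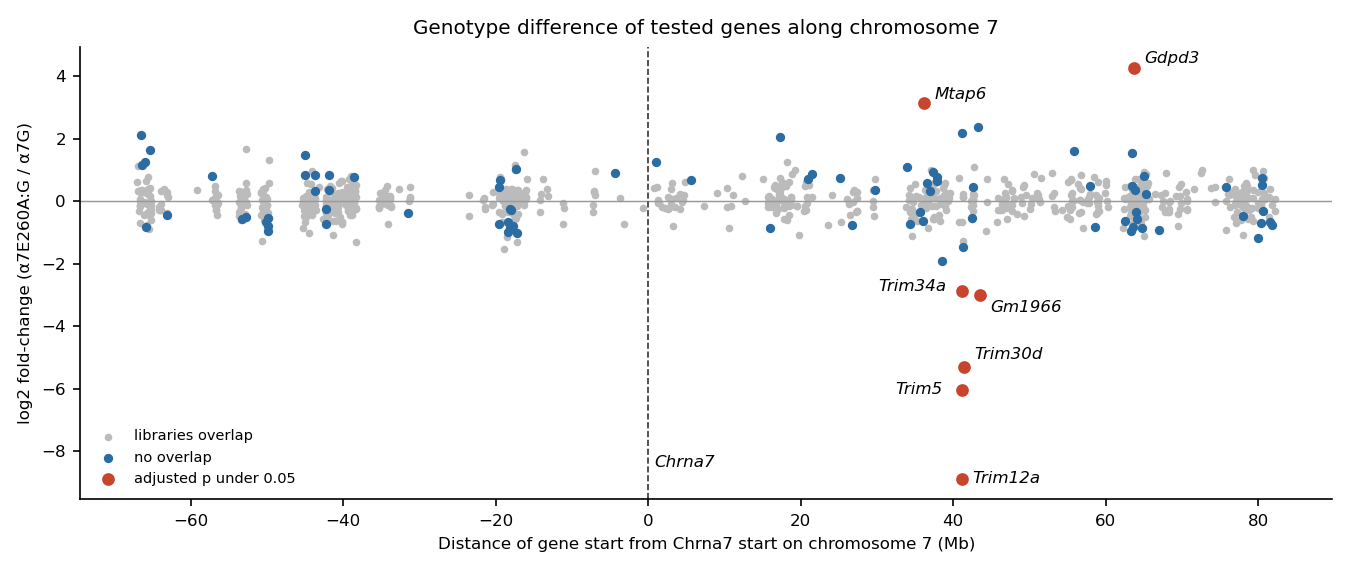
log2 fold-change of α7E260A:G to α7G for each of 1043 tested genes against the distance of its start from that of Chrna7 in Mb (dashed line at 0), with genes whose genotypes do not overlap in blue and called genes in red. The 7 called genes lie from 36.2 to 63.7 Mb from Chrna7, with 5 of them at and near the Trim cluster, and none of the 9 tested genes within 2 Mb is called.

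Other called genes also lay together. On chromosome 8, Msr1, Mtmr7 and Slc7a2 lay within 2 Mb of each other. Of 13 genes tested within 2 Mb of Msr1, these 3 and Pdgfrl, a receptor-like gene with log2 fold-change 0.94 ± 0.34 (adjusted p = 0.285), did not overlap. Over all genes 7.49% did not, and this window was centred on a called gene. Msr1 and Slc7a2 are macrophage genes that were higher, whereas Mtmr7 was lower. Olr1 and Klrc3 lay within 2 Mb of each other on chromosome 6, in the region of NK receptor genes, and Ttyh2 and St6galnac2 on chromosome 11. On chromosome 12 the called transcripts Gm16999, with 0.217, 0, 0 and 0.232 RPM in α7G and 11.3, 82.8, 9.60 and 7.96 RPM in α7E260A:G (adjusted p = 0.0304), and Gm16857, with 0.325, 0.203, 0.352 and 0.349 RPM in α7G and 20.6, 157, 6.82 and 11.7 RPM in α7E260A:G (adjusted p = 0.0394), are immunoglobulin heavy chain V segments or their neighbours. Of 87 V genes tested there, 8 higher and 11 lower did not overlap, against 7.49% of all genes in either direction. Ighv8-11 was among the higher, with 0, 0, 0 and 0.232 RPM in α7G and 5.11, 171, 2.66 and 3.98 RPM in α7E260A:G, 2 against 1676 counts in all and a ratio of 868 (exact interval 239.8 to 7171, adjusted p = 0.0764). Immunoglobulin V genes are closely related in sequence, and the female α7E260A:G control, which had the most Igj, was also the highest for Gm16999 and Gm16857.

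More widely, 58 of the 13599 genes tested differed by more than 4-fold without overlap, 34 higher and 24 lower. Chromosomes 7 and 12 held 27 of these, 11 among 1043 genes tested on chromosome 7 and 16 among 546 on chromosome 12. Of the 58, 22 were in runs of at least 3 such genes within 5 Mb (14 on chromosome 12 and 8 on chromosome 7). The run on chromosome 12 lay among the immunoglobulin heavy chain V segments and neighbours described above. Whether that run follows the B and plasma cells of a library or the background of the line was not tested. A panel of genes known to vary among mouse strains, which was assembled with earlier results known, held 44 tested genes with a median of 0.05 against 0.03 over all genes. Its 5 called members (Gdpd3, Mtap6, F10, Greb1 and Trim12a, against 0.191% called of all genes) were known to separate the lines when it was assembled, so that count follows from the choice and nothing is read from it. Ifi202b, an interferon-inducible gene that is nearly silent in C57BL/6 mice, had 0, 0, 0.704 and 0.116 RPM in α7G and 26.9, 16.4, 5.09 and 8.80 RPM in α7E260A:G without overlap (log2 fold-change 5.91 ± 0.91, adjusted p = 0.0536, and 8.31 without the male α7G CS library). CDS counts carry no sequence variants, so whether a stretch of another strain's genome accompanies the E260A line was not tested, and a difference of the line's background and an effect of the mutation cannot be told apart in these libraries.

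Among the 26 called genes, 16 shared no coding 50-base word with another gene and 9 shared more than 10%. The latter included, beside the Trim genes and V segments, Klrc3 (35.7%, mostly with Klrc2), Gdpd3 (13.6%, with the overlapping Gm9967) and Rps13-ps1 (88.7%, with Gm10159). Outside the calls, Ctsd shared 7.73% with the overlapping 6330512M04Rik, Mmp12 6.63% with the overlapping Mmp1b, and Orm2 11.5%, mostly with Orm1. Values of these genes may include reads of their relatives.

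The genotype difference was then compared between exposures and between sexes. For the interaction of genotype with exposure edgeR called 0 genes, with 295 at an unadjusted p under 0.05 and a smallest adjusted p of 0.999, and DESeq2 called 7. For the interaction with sex edgeR called 0, with 2153 at an unadjusted p under 0.05 and a smallest adjusted p of 0.309, and DESeq2 called 27. For genotype itself, in the model without sex, edgeR had 1637 of 13599 genes at an unadjusted p under 0.05, fewer than for the interaction with sex. That edgeR called 0 therefore does not show that the genotype difference was alike in both sexes. Without the male α7E260A:G control 96 genes were called for the exposure interaction, and without the female α7E260A:G CS library 1618 were called for the sex interaction. Slc39a2 and Gpnmb, whose values in α7E260A:G were highest after CS, had interaction terms with exposure of 0.93 and 0.80 on the log2 scale (adjusted p = 0.999 for both). For F10 the term was -0.54 and for Msr1 1.24. The 4 libraries of either exposure tested alone called 1 gene in controls and 42 after CS, which does not show that the difference was larger after CS.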

How the data were processed

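The authors isolated cells of the distal lung after lavage, depleted CD45+ cells, prepared stranded polyA libraries with TruSeq kits, aligned reads with STAR to mm9 (NCBIM37) and counted reads on coding sequences (CDS) with htseq-count and GENCODE M1. Tool versions and the strand setting of the counting are not given in the sources used here. The deposited values are these raw counts for 22756 genes in each of 8 libraries, without a filter. Groups and sex were taken from the labels. Members of the comparison, gene lists, named genes and tests were chosen with earlier results of these data known.

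Counts were tested with edgeR 4.0.16 (glmQLFit and glmQLFTest, TMM scaling) in R 4.3.3 with limma 3.58.1, with terms for exposure and genotype, on 13599 genes kept by filterByExpr, and p-values were adjusted by Benjamini-Hochberg over these at 0.05. RPM are counts scaled to the TMM-adjusted library total, the error of a log2 fold-change is its SE derived from the F statistic, and pair ratios used RPM plus 0.5. Genotypes did not overlap where the lowest library of one lay above the highest of the other. A count of 3 corresponds to 0.274 to 0.374 RPM. Intervals cover counting error only. List medians use the tested genes and summed RPM all listed genes found. Coordinates and CDS lengths come from GENCODE M1, which held all 22756 identifiers, and reads shared between genes were gauged by identical 50-base words of annotated coding transcripts.

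Named genes are those within 2 Mb of Chrna7, up to 15 called genes in each direction with the largest change, 15 in each direction with the largest smallest pair ratio at a mean count of at least 50, the 3 most abundant and 2 most changed of each list, and runs of genes over 4-fold apart. Marco, Ptprc, Ttyh2, Lamp1 and Pdgfrl were named beside these after their values were seen. One called gene is not reported here. Alternatives were RLE and library size scaling, the filter of the study (mean count of at least 200, with immunoglobulin, histocompatibility, Gm and ribosome genes left out), no filter, DESeq2 1.42.0, sex as a block, an offset for CDS length (lowess, span 0.667), no exposure term, each sex or exposure alone, and each library left out. The fits were tested on simulated counts. Python 3.11.15 with numpy 2.4.6, pandas 2.3.3, scipy 1.17.1 and matplotlib 3.10.9 was used for other steps.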

Additional observations from a re-analysis of the deposited data

Results flagged for a closer look

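The highest or lowest of 4 libraries stood apart, by Dixon's test at 95%, in 14 of 132 groups looked at. Chance gives about 1 in 20 only where the 4 values come from 1 normal distribution. Each group here mixed sexes and exposures, so the number flagged is not read as an excess. Among called genes, Plxdc1 was at 18.2 RPM in the male α7G CS library against 9.45 to 10.3 RPM in the rest of its line, and Gdpd3 was at 73.6 RPM in the male α7E260A:G control against 209 to 235 RPM. The female α7E260A:G control had 82.8 RPM of Gm16999 against 7.96 to 11.3 RPM and 157 RPM of Gm16857 against 6.82 to 20.6 RPM. At the level of a few counts, Trim5 was at 0.455 RPM in the male α7E260A:G control and 0 in the other libraries of the line, Trim12a was at 0 in the male α7E260A:G CS library and 0.109 to 0.121 RPM in the others, and Rps13-ps1 was at 0.102 RPM in the female α7G control and 0 in the others. A lone value above 0 beside values of 0 is always flagged by this test, so the flags of Trim5 and Rps13-ps1 carry no information.

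Among summed lists, B and plasma cell transcripts reached 8788 RPM in the female α7E260A:G control against 1914 to 2365 RPM, and erythroid transcripts 8816 RPM in the male α7E260A:G CS library against 279 to 1262 RPM. Basal and goblet cell transcripts stood at 611 RPM in the female α7G control against 247 to 276 RPM. Smooth muscle and mesothelial transcripts stood at 154 RPM in the female α7E260A:G CS library against 89.4 to 98.7 RPM. The male α7E260A:G control stood apart for ciliated cell transcripts (2217 RPM against 2378 to 2408), the tripartite motif cluster (243 RPM against 175 to 187) and complement (3888 RPM against 2899 to 3040).

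The mean log2 difference of 5 lists had opposite signs in both pairs of one kind and both pairs of the other, of 80 contrasts looked at, and these differences were not tested. By sex, neutrophil transcripts differed by -0.84 in the male and 0.92 in the female pairs, fibroblast transcripts by 0.35 and -0.46, complex I transcripts by -0.63 and 0.52, and the panel of strain-variable genes by -0.090 and 0.26. By exposure, interferon-stimulated transcripts differed by 0.12 in control and -0.19 in CS pairs.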

How the results depend on the processing

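The 26 genotype calls became 25 with RLE scaling, 27 with library size scaling, 23 with the filter of the study and 26 without an exposure term, of which 25, 19, 16 and 21 were among the 26. They became 96 with no filter, 660 by DESeq2, 566 with the CDS length offset, 1950 in the male and 9 in the female libraries alone, and 1 in the control and 42 in the CS libraries alone. With a library left out they ranged from 5 to 978, with 978 without the female α7E260A:G control and 26 without the male one. No direction of a called gene reversed in 536 values over these settings, while 199 fell short of the threshold and 337 passed it. The genotypes did not overlap for any of the 26, so leaving out libraries could hardly reverse a direction. Nothing is therefore read from the absence of reversals. Libraries of a pair share sex and exposure by their labels, and the methods of the study state that both lines were exposed at the same time, but no shared litter or animal is stated. Their deviations from the genotype means correlated by 0.63, -0.14, -0.13 and 0.39 across genes. With sex as a block there were 93 calls, and 764 with sex as a block and the length offset, both including all 26.

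The exposure interaction gave 0 calls, 7 by DESeq2, 1 with the length offset, and 0 to 96 with a library left out. The sex interaction gave 0, 27 by DESeq2, and 0 to 1618 with a library left out. Genes without overlap numbered 584 under the filter of the study and 1276 to 1772 with a library left out, when fewer libraries have to be separated. Genes with one sign in 4 pairs numbered 1652 under that filter. The log2 fold-change of Ptprc turned to -0.019 in the female and -0.095 in the control libraries alone, that of Foxj1 to 0.31 in the male, that of Trim12c to -0.047 in the control, and that of Igj to -0.52 in the male and -0.68 in the CS libraries alone and -0.78 without the female α7E260A:G control, within a range of -0.78 to 1.52 with any library left out. The cause of these shifts was not tested. Counts over 4 pairs need all 8 libraries and were not computed with a library left out or within one sex or exposure, nor were overlaps within one sex or exposure. The exposure interaction could not be fitted without an exposure term, the sex interaction already holds a term for sex, and neither could be tested within one sex or exposure. Depth limits the precision of a fold for transcripts with 0 counts in some libraries of one line, such as Trim5.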

Other observations

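The pairs of some transcript groups differed in sign. Erythroid transcripts, which mark red blood cells and their precursors, had pair medians of -0.86, -1.01, 2.25 and -2.21 (log2) in the control male, control female, CS male and CS female pairs. Neutrophil transcripts had pair medians of -0.78, 1.31, 0.26 and 0.42, and fibroblast transcripts 1.11, -0.53, 0.30 and -0.14, with both male pairs above 0 and both female pairs below. Cell cycle genes had a median log2 fold-change of 0.07, heat shock genes 0.19, immediate early genes -0.40 and clock genes 0.25, with 0 members called by edgeR, 3 of 26, 0 of 22, 6 of 20 and 4 of 18 at an unadjusted p under 0.05 (1637 of all 13599 genes) and 2, 0, 2 and 2 called by DESeq2 (4.85%). Nicotinic receptor and Ly6 family genes, whose products include modulators of α7, had a median of -0.38 over 11 tested genes. Of 13 listed genes of the mitochondrial genome, 5 were at 0 in every library, the other 8 made up 2.28% to 5.49% of CDS counts, and the genotypes overlapped for each of these 8.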
